A study of Mus musculus with 24 samples.

Results

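The 33 genes described here are markers of the endothelium, the cell layer that lines blood vessels, measured in the gastrocnemius, the large calf muscle of the mouse. They were chosen by symbol from the 36172 gene models of the deposited tables, and all 33 passed the expression filter and were among the 13048 genes tested. They comprise receptors (Kdr, Flt1, Tek, Tie1, Ptprb, Eng, Aplnr, Robo4), secreted products (Apln, Egfl7, Mmrn2, Vwf), junction and surface proteins (Pecam1, Cdh5, Cldn5, Esam, Pcdh12, Emcn, Icam2, Clec14a, Ecscr), proteins of transport, tone and vessel shape (Nos3, Aqp1, Gpihbp1, Plvap, Rasip1, Tmem100) and transcription factors (Erg, Fli1, Ets1, Sox7, Sox17, Sox18). Endothelial cells of muscle capillaries carry oxygen, glucose and fatty acids to the fibres and answer to growth factors that the fibres release. Vascular endothelial growth factor drives sprouting through Kdr, angiopoietins keep vessels quiet through Tek, and bone morphogenetic proteins of the blood act through Acvrl1 and its coreceptor Eng. Flow along the vessel wall sets the release of nitric oxide by Nos3.

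The mice were of the C57BL/6 strain and all carried floxed Notch2 alleles. Notch2-mKO mice (Mlc1fCre/+;Notch2f/f) also carried Cre recombinase driven by Mlc1f, a gene of muscle fibres, so that endothelium was not the target, and mice labelled WT were Notch2f/f without Cre. Each genotype was studied after 7 days of hindlimb suspension (unloading), 14 days after 1 injection of streptozotocin (STZ, 150 mg/kg), a toxin of the insulin-producing cells (diabetes), and as controls, with 4 libraries in each of the 6 groups. The labels do not say that the libraries of a group came from separate animals, so the spread that p-values measure may be partly technical.

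Totals ran from 33112459 to 56369917 estimated counts per library, and 3 counts correspond to 0.0906 CPM in the shallowest library. Levels are in CPM, counts relative to the TMM-scaled library total. The libraries also differed in base composition, measured here by an index: the mean log2 level, relative to the mean of all libraries, of 1287 genes under 42% GC minus that of 2612 genes over 56% GC. This index was 0.424 ± 0.0761 in unloaded WT and 0.398 ± 0.153 in diabetic WT libraries, against -0.680 ± 0.350 in WT controls (SD, n = 4 each). In Notch2-mKO libraries it was 0.0261 ± 0.222 after unloading and 0.154 ± 0.154 in diabetes, against -0.323 ± 0.276 in controls. Because the index moves with the treatments, results are also given after a trend with transcript GC content and length was taken out of each library. The targeted gene Notch2 was at 1.30 to 1.58 CPM in unloaded, 1.15 to 2.16 CPM in diabetic and 1.25 to 2.55 CPM in control Notch2-mKO libraries, against 1.34 to 2.02, 1.74 to 3.18 and 1.76 to 1.92 CPM in the matching WT libraries. It was not called between the genotypes by edgeR (log2 fold changes of -0.30, -0.36 and 0.02, adjusted p between 0.696 and 0.993), and since whole muscle also holds cells without Cre, its level does not check the labels of genotype. In a few libraries many of the endothelial genes were at the extreme of their group, and the same count over all genes was not made. In Notch2-mKO control replicate 4 the level of 23 of the 33 was the highest of its group, in WT control replicate 4 that of 19, and in Notch2-mKO unloading replicate 1 that of 22 was the lowest of its group. The last of these libraries also differed beyond the list. Its TMM factor was 1.279, against 0.917 to 0.965 in the rest of its group. Its muscle fibre markers summed to 133756 CPM, against 231342 to 243475 CPM.

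All 33 genes, the defining junction genes Pecam1 and Cdh5 included, were detected in every library. Per kilobase of transcript Aqp1, a water channel that red blood cells also make, was highest with 87.8 CPM per kb over the 24 libraries. Tmem100 (15.7), Pecam1 (14.3), Cdh5 (12.6) and Gpihbp1 (9.99 CPM per kb) came next. Fli1 (0.185), Pcdh12 (0.347), Apln (0.398) and Clec14a (0.487 CPM per kb) were lowest. Among deposited values, single libraries of the low genes held few counts, down to 2 for Apln and 6 for Fli1, while Pecam1 had at least 1467 and Cdh5 at least 1465.

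**Figure D1:**
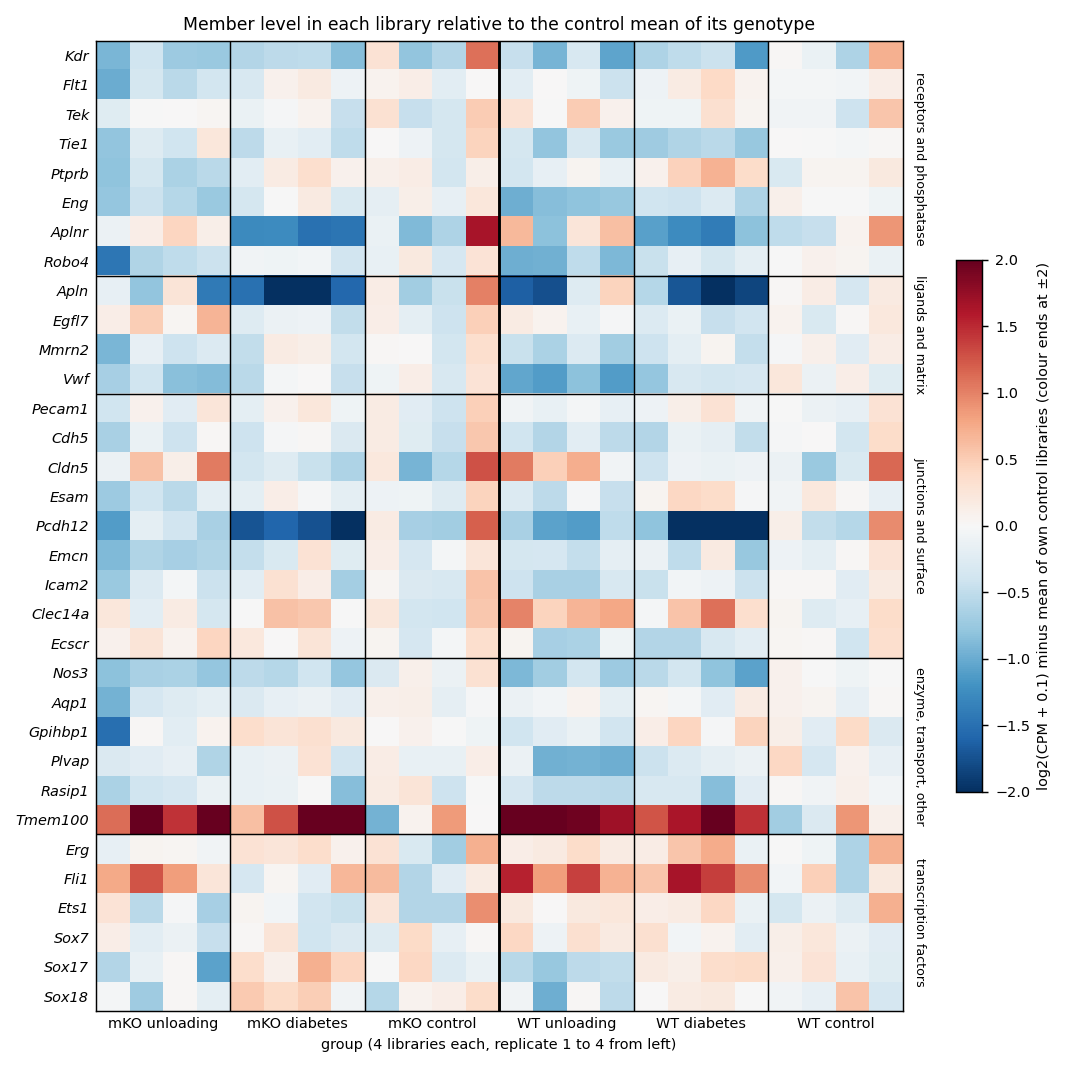
Level of each of the 33 genes (rows, grouped by role) in each of the 24 libraries (columns, 4 per group), as log2(CPM + 0.1) minus the mean of the 4 control libraries of the same genotype. Red is higher and blue is lower. The Tmem100 row is red in every unloaded and diabetic library, the Aplnr and Pcdh12 rows are blue in every diabetic library, and replicate 4 stands out in both control groups.

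After 7 days of unloading, 9 of the 33 endothelial genes fell and 3 rose in WT muscle. A gene was called, in every comparison, when the p of edgeR's quasi-likelihood test, adjusted by Benjamini and Hochberg's method across the 13048 genes, was under 0.05. Of all genes tested 16.3% fell and 18.4% rose, so the falling share of the list (27.3%) lay above and the rising share (9.09%) below the background. The summed level of the list was 613 to 729 CPM in unloaded WT libraries, against 733 to 849 CPM in WT controls, and so did not overlap. In Notch2-mKO it was 463 to 728 CPM after unloading, against 629 to 906 CPM in controls, with overlap. In unloaded WT muscle its median log2 fold change was -0.33, against -0.02 for all genes, and 23 of 33 were lower. In unloaded Notch2-mKO muscle 8 fell and 1 rose (24.2% and 3.03% of the list), where 3.2% of all genes fell and 4.11% rose, with a median of -0.34 (0.02 for all genes) and 28 of 33 lower. In bulk muscle fewer endothelial cells and less RNA per cell cannot be told apart. With the trend in GC content and length removed, 4 fell and 1 rose in unloaded WT muscle (median -0.13), where 11.8% of all genes fell and 14.4% rose, so that the falling share (12.1%) was near the background. In the same setting 7 fell and 1 rose in unloaded Notch2-mKO muscle (median -0.31), where 3.2% of all genes fell and 4.48% rose. Without Notch2-mKO unloading replicate 1, 4 fell and 1 rose in that genotype: Eng, Vwf, Robo4, Nos3 and Tmem100 were the genes called. The share of all genes called in that fit is not given here. In limma on the authors' log2 values 4 of 33 were called in unloaded WT muscle (Eng, Vwf and Robo4 lower and Tmem100 higher), where 4.91% of all genes fell and 21.5% rose. It called 0 of 33 and 2 of all genes in unloaded Notch2-mKO muscle. The medians moved too: in unloaded Notch2-mKO muscle the median was -0.19 with 22 of 33 lower without both control libraries numbered 4, an alternative chosen after seeing the data, and -0.20 with 24 lower by limma, and in unloaded WT muscle it was -0.07 with 20 lower by limma.

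In diabetes the falls were led by Pcdh12, Apln and Aplnr in both genotypes. The summed level of the list was 687 to 771 CPM in diabetic WT and 618 to 788 CPM in diabetic Notch2-mKO libraries, which overlapped with the controls. In diabetic WT muscle 7 fell and 3 rose (21.2% and 9.09% of the list), where 15.5% of all genes fell and 17.8% rose, and the median was -0.26 with 19 of 33 lower. In diabetic Notch2-mKO muscle 4 fell and 1 rose (12.1% and 3.03%), where 2.54% of all genes fell and 3.05% rose, and the median was -0.14 with 24 of 33 lower. The unloading and diabetes comparisons of a genotype share its 4 control libraries. With the trend removed 7 fell and 2 rose in diabetic WT muscle (median 0.00), where 11.1% of all genes fell and 12.5% rose. These were not all the same genes: the calls of Eng, Vwf, Ptprb and Fli1 ended, while Kdr and Emcn were newly called lower. In the same setting 3 fell and 0 rose in diabetic Notch2-mKO muscle (median -0.065), where 1.97% of all genes fell and 2.43% rose. The diabetes medians were -0.17 in WT and -0.02 in Notch2-mKO without both controls numbered 4, and 0.01 and -0.01 by limma. The Notch2-mKO diabetes calls among the 33 depended on single libraries: 0 were called without control replicate 4 and 3 without control replicate 2. Without diabetes replicates 2, 3 and 4 there were 2, 2 and 1. In diabetic WT muscle 6 were called without diabetes replicate 2. The share of all genes called in these fits is not given here. Whether the losses were particular to the list was not tested. In limma 2 of 33 were called in diabetic WT (Tmem100 and Gpihbp1, both higher) and 1 in diabetic Notch2-mKO muscle (Gpihbp1), where 17.9% and 7.59% of all genes were called higher. Over the 4 treatment comparisons 19 of the 33 genes were called at least once, where 45.7% of all genes were, and 14 in none, among them Pecam1, Cdh5, Kdr, Tek, Erg and Ets1.

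**Figure D2:**
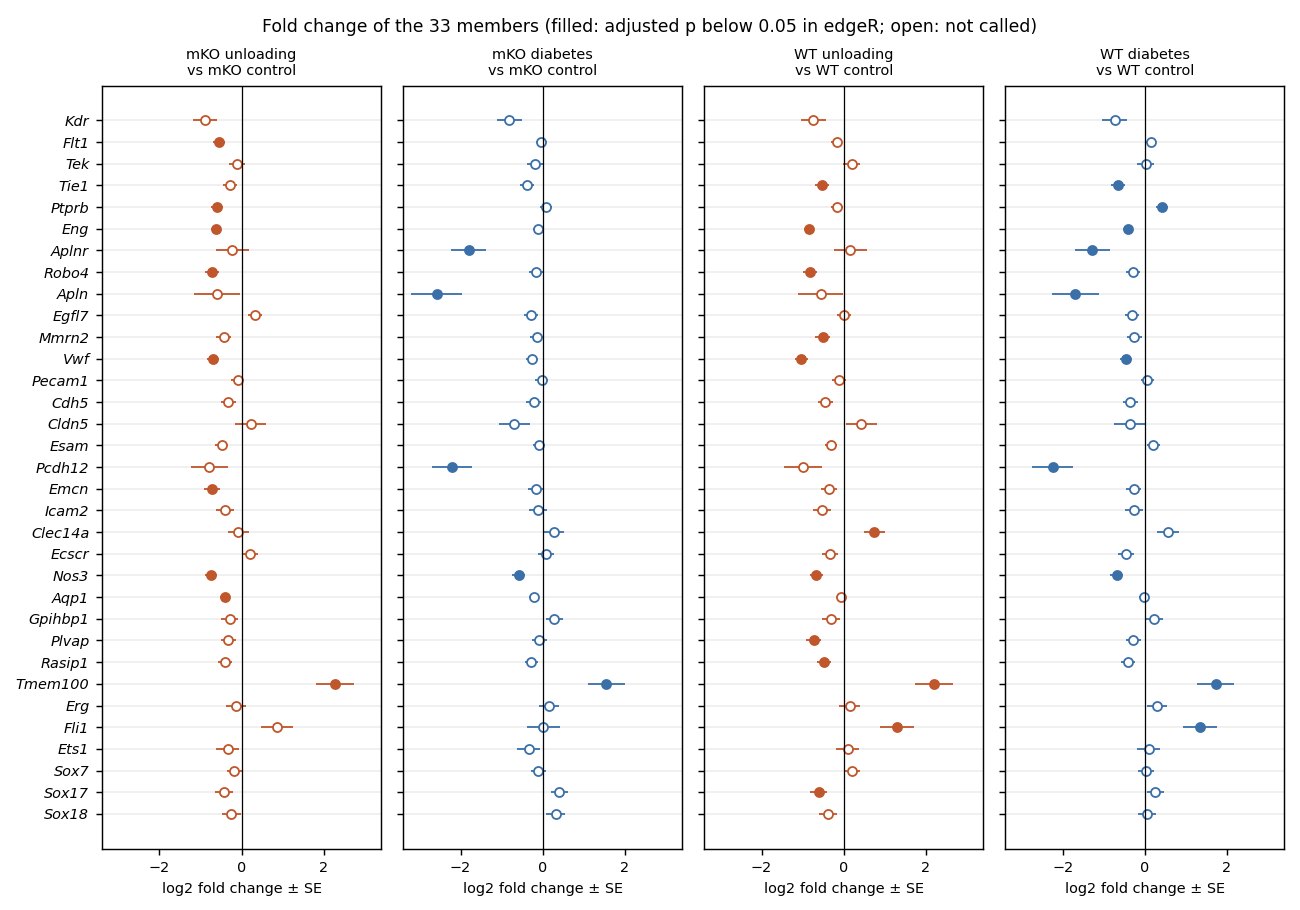
Log2 fold change (horizontal axis, bars show SE) of the 33 genes in 4 treatment comparisons, 4 libraries against 4 in each. Filled points were called by edgeR and open points were not. In the unloading panels most points lie left of 0, with 28 of 33 lower in Notch2-mKO and 23 of 33 in WT, and Tmem100 lies right of 0 in every panel.

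Promoter windows of 4 genes are shown because Robo4 and Eng were called lower after unloading in both genotypes, Apln in diabetes in both, and Tie1 in both WT treatments. They come from RefSeq (build GRCm38.p6, the assembly also named mm10) and run from 250 bases before to 50 after the start, 5′ to 3′ on the gene's strand. Capitals mark GGAA, the core letters bound by ETS factors such as Erg and Fli1, or its reverse complement TTCC. Robo4 lies at chr9:37401722-37402021 (plus strand), Eng at chr2:32646345-32646644 (plus), Tie1 at chr4:118489800-118490099 (minus) and Apln at chrX:48034804-48035103 (minus).
Robo4: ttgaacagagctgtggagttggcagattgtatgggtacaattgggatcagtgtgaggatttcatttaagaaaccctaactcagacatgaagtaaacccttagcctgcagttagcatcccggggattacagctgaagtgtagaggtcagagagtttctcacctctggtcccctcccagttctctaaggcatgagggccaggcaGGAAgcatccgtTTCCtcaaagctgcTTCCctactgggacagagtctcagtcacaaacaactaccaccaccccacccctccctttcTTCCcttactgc
Eng: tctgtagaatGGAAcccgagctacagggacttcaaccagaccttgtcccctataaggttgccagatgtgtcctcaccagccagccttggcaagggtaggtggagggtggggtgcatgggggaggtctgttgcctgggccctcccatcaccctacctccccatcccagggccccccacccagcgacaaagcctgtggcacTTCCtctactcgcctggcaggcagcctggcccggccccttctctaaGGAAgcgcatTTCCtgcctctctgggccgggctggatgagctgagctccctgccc
Tie1: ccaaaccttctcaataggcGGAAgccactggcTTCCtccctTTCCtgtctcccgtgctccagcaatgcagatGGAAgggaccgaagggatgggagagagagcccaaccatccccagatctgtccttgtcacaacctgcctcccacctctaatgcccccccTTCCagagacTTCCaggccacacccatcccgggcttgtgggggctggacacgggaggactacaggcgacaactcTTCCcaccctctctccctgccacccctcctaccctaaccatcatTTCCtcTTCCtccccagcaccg
Apln: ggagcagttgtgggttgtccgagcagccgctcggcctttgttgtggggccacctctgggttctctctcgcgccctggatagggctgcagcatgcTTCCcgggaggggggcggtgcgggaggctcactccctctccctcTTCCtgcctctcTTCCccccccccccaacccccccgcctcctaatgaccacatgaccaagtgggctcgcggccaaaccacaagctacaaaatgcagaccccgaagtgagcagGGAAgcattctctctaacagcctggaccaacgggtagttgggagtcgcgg
Robo4, Eng and Apln each held 4 matches in these windows, and Tie1 held 9, the most of the endothelial genes with a window. Of the 33 genes 14 had such windows, 18 in all, and 94.4% of these held GGAA on either strand, against 96% of 32851 mouse promoter windows of the same length. The median number of matches was 4 against 3. The longer letters CAGGAAGT were in 5.56% against 3.33%, CCGGAAGT in 0% against 3.89%, and the SOX letters ACAAT and ACAAAG in 27.8% against 31% and in 22.2% against 18.7%, each on both strands, where the ETS octamers include GGAA. These shares describe letters alone.

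The coreceptor of the bone morphogenetic protein branch, Eng (chromosome 2, 32646595 to 32682669), fell with unloading in both genotypes. It was at 22.3, 24.5, 25.3 and 26.2 CPM in unloaded WT libraries and at 33.7, 33.3, 36.5 and 28.9 CPM in diabetic WT libraries, against 47.6, 43.9, 44.1 and 41.6 CPM in WT controls. It was at 23.2, 29.3, 26.5 and 23.7 CPM in unloaded and at 30.9, 39.5, 44.8 and 32.2 CPM in diabetic Notch2-mKO libraries, against 35.0, 42.7, 35.5 and 46.2 CPM in Notch2-mKO controls. All unloaded libraries lay below all controls of their genotype, diabetic WT libraries lay between the other WT groups, and diabetic Notch2-mKO libraries overlapped with their controls. The log2 fold changes were -0.85 (SE 0.121, adjusted p = 1.33e-05) for unloading and -0.42 (SE 0.12, adjusted p = 0.00877) for diabetes in WT, both edgeR. In Notch2-mKO they were -0.64 (SE 0.12, adjusted p = 0.00427) for unloading and -0.11 (adjusted p = 0.616) for diabetes. Removing the trend left the unloading calls (-0.57 in WT, -0.53 in Notch2-mKO) and ended that for diabetes in WT (-0.17, adjusted p = 0.286).

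Tmem100 (chromosome 11, 90030348 to 90036508), a membrane protein of the endothelium that signalling through Acvrl1 is known to induce, rose in all 4 treatment comparisons. It was at 41.3, 57.0, 29.7 and 24.9 CPM in unloaded and at 18.4, 23.9, 46.5 and 21.4 CPM in diabetic WT libraries, against 4.71, 6.27, 14.1 and 8.23 CPM in WT controls. In Notch2-mKO Tmem100 was at 21.0, 70.0, 26.4 and 87.4 CPM in unloaded and at 14.7, 23.5, 43.3 and 42.1 CPM in diabetic libraries, against 4.96, 10.1, 17.5 and 9.67 CPM in controls. No treated library overlapped with the controls, apart from diabetic Notch2-mKO replicate 1, which lay below control replicate 3. The log2 fold change was 2.20 (SE 0.463, adjusted p = 7.27e-04) for unloading and 1.73 (SE 0.457, adjusted p = 0.0052) for diabetes in WT. In Notch2-mKO the change was 2.28 (SE 0.46, adjusted p = 0.00656) for unloading and 1.55 (SE 0.451, adjusted p = 0.0435) for diabetes. The last call ended with the trend removed (1.40, adjusted p = 0.0848) and without control replicate 1, 2 or 4 or diabetes replicate 2, 3 or 4.

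Of 9 tested genes of the same pathway, 3 fell and 3 rose in unloaded WT muscle. The falls included Id1 (-1.04, adjusted p = 1.79e-04), a target gene of the pathway, its receptor Acvrl1 (-0.79, adjusted p = 1.92e-04) and Id3 (-0.48, adjusted p = 0.012), all log2 fold changes by edgeR. Smad5, a signal carrier, rose (0.52, adjusted p = 0.00465; 0.18 with the trend removed, adjusted p = 0.255). The other rises, named after their values were seen, were of Smad7, an inhibitor of the pathway (1.10, adjusted p = 0.0168; 1.37 with the trend removed, still called), and Smad1, another signal carrier (0.55, adjusted p = 0.0492; 0.68 with the trend removed, still called). Leaving out WT control replicate 1 or 3 or unloading replicate 1 ended the call of Smad7, and 6 of 8 such fits ended that of Smad1. In unloaded Notch2-mKO muscle 2 of 9 fell, Acvrl1 (-0.57, adjusted p = 0.02) and Id1 (-0.62, adjusted p = 0.0441), and 0 rose. In diabetes 2 of 9 rose in WT, Smad7 (1.39, adjusted p = 0.00337), and Smad5 (0.40, adjusted p = 0.0261), and none of the 9 was called in Notch2-mKO. Removing the trend ended the calls of Id3 in unloaded WT, Id1 in unloaded Notch2-mKO and Smad5 in both WT treatments.

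Of the receptors of vascular endothelial growth factor among the 33 genes, Kdr was not called and Flt1 was called in unloaded Notch2-mKO muscle. Kdr (chromosome 5, 75932827 to 75979072), the main signalling receptor, was at 11.7 to 19.3 CPM in unloaded and 11.02 to 18.0 CPM in diabetic WT libraries, against 15.8 to 40.0 CPM in WT controls. In Notch2-mKO Kdr was at 11.8 to 16.9 CPM after unloading and 12.3 to 15.7 CPM in diabetes, against 12.8 to 47.7 CPM in controls. The groups overlapped, both control maxima came from replicate 4, and none of the 4 changes was called (log2 fold changes of -0.74 for unloading and -0.73 for diabetes in WT, and of -0.89 and -0.81 in Notch2-mKO, adjusted p between 0.0565 and 0.106). With the trend removed the one in diabetic WT muscle was called (-0.77, adjusted p = 0.0416). Flt1 (chromosome 5, 147561604 to 147726438), the receptor that binds this ligand tightly and limits it, was at 18.9, 29.6, 26.1 and 29.3 CPM in unloaded and 30.2, 40.3, 43.1 and 35.3 CPM in diabetic Notch2-mKO libraries, against 39.7, 41.4, 32.8 and 38.0 CPM in Notch2-mKO controls. All 4 unloaded libraries lay below the controls, and Flt1 fell there (-0.55, SE 0.139, adjusted p = 0.02; not called without control replicate 2 or unloading replicate 1). In WT it was at 25.4 to 34.4 CPM in unloaded and 32.0 to 45.5 CPM in diabetic libraries, against 33.2 to 37.5 CPM in controls, with no call.

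Of the angiopoietin receptors Tie1 fell in both WT treatments and Tek was not called. Tie1 (chromosome 4, 118471191 to 118489849), the partner of Tek, was at 30.1, 22.1, 30.6 and 22.8 CPM in unloaded and 23.5, 25.3, 26.4 and 22.7 CPM in diabetic WT libraries, against 38.7, 38.3, 37.5 and 39.0 CPM in WT controls. Every treated WT library lay below the narrow range of the controls, and Tie1 fell with unloading (-0.54, SE 0.171, adjusted p = 0.0162) and in diabetes (-0.65, SE 0.171, adjusted p = 0.00487). The unloading call ended with the trend removed (-0.27, adjusted p = 0.185), as it did without unloading replicate 2 or 4. In Notch2-mKO Tie1 was at 18.7 to 37.7 CPM in unloaded and 22.4 to 29.1 CPM in diabetic libraries, against 25.2 to 44.0 CPM in controls, with no call. Tek, the signalling receptor, was at 12.9 to 18.6 CPM in unloaded and 12.2 to 16.3 CPM in diabetic WT libraries, against 9.70 to 19.1 CPM in controls, and was called in no comparison.

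Ptprb (chromosome 10, 116275502 to 116389538), the phosphatase that acts on Tek and on the junction protein of Cdh5, was at 27.3, 31.6, 36.7 and 31.8 CPM in unloaded and 37.6, 48.7, 57.3 and 45.4 CPM in diabetic WT libraries, against 28.5, 36.7, 36.5 and 40.6 CPM in WT controls. In Notch2-mKO Ptprb was at 21.9, 30.02, 24.7 and 26.5 CPM in unloaded and 33.2, 43.2, 48.5 and 40.7 CPM in diabetic libraries, against 41.3, 42.6, 29.7 and 41.9 CPM in controls. Groups overlapped with their controls, by replicate 1 of diabetic WT and by replicate 3 of the Notch2-mKO controls. Ptprb rose in diabetic WT muscle (0.41, SE 0.147, adjusted p = 0.0343; 0.21 with the trend removed, adjusted p = 0.259), and that call was lost without control replicate 1, 2 or 3 or diabetes replicate 2 or 3. It fell in unloaded Notch2-mKO muscle (-0.59, SE 0.147, adjusted p = 0.0182), a call lost without control replicate 2 or 4 or unloading replicate 1. The 2 responses to unloading differed by -0.43 (Notch2-mKO minus WT; unadjusted p = 0.0483, adjusted p = 0.344 in edgeR), a difference that was not called.

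Of 14 tested ligands and coreceptors of these receptors, 2 fell and 1 rose in unloaded WT muscle, 1 fell and 2 rose in diabetic WT muscle, 1 fell and 0 rose in unloaded and 0 fell and 1 rose in diabetic Notch2-mKO muscle. Vegfa, the main ligand of Kdr, was at 21.4 to 25.7 CPM in unloaded and 19.3 to 35.6 CPM in diabetic WT libraries, against 26.0 to 33.7 CPM in WT controls, with no call. It fell in unloaded Notch2-mKO muscle, with 20.0 to 26.9 CPM against 27.4 to 35.4 CPM in controls (-0.51, adjusted p = 0.0332; -0.46 with the trend removed, adjusted p = 0.0518). Flt4, the receptor of this family that lymphatic vessels use most, fell in unloaded WT muscle, with 2.84 to 4.56 CPM against 5.07 to 7.00 CPM in WT controls (-0.68, adjusted p = 0.0351). That call ended after removal of the trend (-0.44, adjusted p = 0.157) and without control replicate 2 or 3 or unloading replicate 1 or 4. With 3.001 to 4.03 CPM in unloaded Notch2-mKO libraries, against 3.78 to 7.26 CPM in controls, Flt4 was not called there (-0.67, adjusted p = 0.0919). Vegfb fell in both WT treatments (-0.78, adjusted p = 7.55e-05, and -0.59, adjusted p = 0.00114), and with the trend removed in unloading alone (-0.35 and -0.17). Angpt1, the activating ligand of Tek, rose in both WT treatments (1.22, adjusted p = 0.00557, and 1.39, adjusted p = 0.00218), calls that ended with the trend removed (0.44 and 0.61). Angpt2, its context-dependent antagonist, was at 0.574 to 3.05 CPM over all libraries and was called in no treatment comparison. Angptl4, a secreted inhibitor of lipoprotein lipase related in sequence to the angiopoietins, rose in diabetes in WT (2.18, adjusted p = 6.26e-04) and in Notch2-mKO (1.51, adjusted p = 0.042).

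The apelin pair fell in diabetes. Apln (chromosome X, 48025146 to 48034853), the peptide ligand that sprouting endothelial cells make, was at 1.44, 0.599, 0.192 and 0.537 CPM in diabetic WT libraries, against 2.22, 2.42, 1.70 and 2.47 CPM in WT controls. In diabetic Notch2-mKO libraries it was at 0.479, 0.0404, 0.180 and 0.443 CPM, against 1.69, 0.897, 1.09 and 3.15 CPM in controls. No diabetic library overlapped with the controls of its genotype, and diabetic Notch2-mKO replicate 2 held 2 counts. The log2 fold changes were -1.69 (SE 0.576, adjusted p = 0.0258) in WT and -2.58 (SE 0.631, adjusted p = 0.0209) in Notch2-mKO, both still called with the trend removed. The WT call was lost without control replicate 2 or diabetes replicate 2, 3 or 4, and the Notch2-mKO call without control replicate 4 or diabetes replicate 2 or 3. After unloading Apln was at 0.575 to 3.01 CPM in WT and 0.506 to 1.83 CPM in Notch2-mKO, and neither change was called (-0.56 and -0.59).

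Aplnr (chromosome 2, 85136360 to 85139923), its receptor, was at 2.09, 1.84, 1.67 and 2.52 CPM in diabetic and 7.17, 2.53, 5.40 and 6.97 CPM in unloaded WT libraries, against 3.18, 3.28, 4.81 and 8.51 CPM in WT controls. In Notch2-mKO Aplnr was at 1.72, 1.74, 1.47 and 1.50 CPM in diabetic and 3.97, 4.72, 5.83 and 4.67 CPM in unloaded libraries, against 3.92, 2.27, 2.76 and 13.6 CPM in controls. Diabetic libraries lay below all others of their genotype, within a narrow range, while controls spread widely. Aplnr fell by 1.28 on the log2 scale in WT (SE 0.421, adjusted p = 0.0214) and by 1.81 in Notch2-mKO (SE 0.428, adjusted p = 0.0178). The WT call was lost without control replicate 4 or diabetes replicate 2 or 3, and the Notch2-mKO call without control replicate 4 or diabetes replicate 3 or 4. Without both control libraries numbered 4 the values were -0.88 (adjusted p = 0.0146) and -0.89 (adjusted p = 0.0856).

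Pcdh12 (chromosome 18, 38267092 to 38284401), a protocadherin of endothelial junctions, fell in diabetes. It was at 1.48, 0.514, 0.230 and 0.286 CPM in diabetic and 1.65, 1.21, 1.17 and 1.84 CPM in unloaded WT libraries, against 2.88, 1.85, 1.75 and 5.23 CPM in WT controls. In Notch2-mKO Pcdh12 was at 0.870, 0.969, 0.857 and 0.394 CPM in diabetic and 1.38, 2.71, 2.37 and 1.94 CPM in unloaded libraries, against 3.49, 1.92, 1.89 and 7.24 CPM in controls. Diabetic libraries did not overlap with the controls, and both control maxima were in replicate 4. The log2 fold changes in diabetes were -2.24 (SE 0.498, adjusted p = 0.00126) in WT and -2.22 (SE 0.486, adjusted p = 0.0122) in Notch2-mKO. The Notch2-mKO call was lost without control replicate 4 or diabetes replicate 4, and the value was -1.64 without both control libraries numbered 4 (adjusted p = 0.0536).

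**Figure D3:**
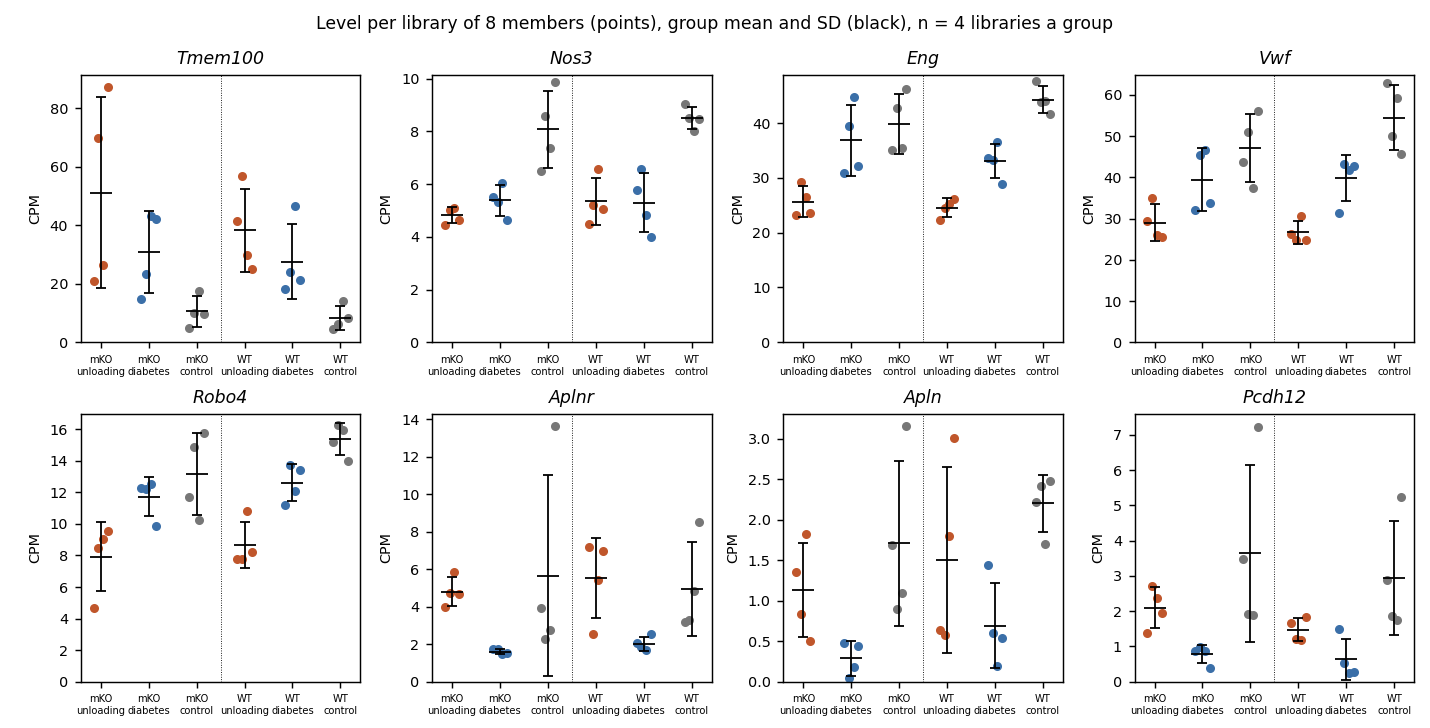
CPM (vertical axis, from 0) of 8 of the genes in each library (points), with group mean and SD (black bars, n = 4). In each panel the Notch2-mKO groups are left of the WT groups and treated groups left of their controls. Unloaded libraries lie below the controls for Eng, Vwf, Robo4 and Nos3, while diabetic libraries lie below the controls for Aplnr and Pcdh12, and replicate 4 of the Notch2-mKO controls reaches 13.6 CPM for Aplnr.

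Low oxygen is known to induce Apln. The list of other oxygen response genes held 13 tested genes, among them the transcription factor genes Hif1a and Epas1. Of these 13, 3 rose and 2 fell in unloaded WT muscle and 5 rose and 1 fell in diabetic WT muscle. In unloaded Notch2-mKO muscle 1 rose and 4 fell, and in diabetic Notch2-mKO muscle 1 rose and 1 fell. The falls in diabetes were of Car9, a carbonic anhydrase (-1.52 in WT, adjusted p = 0.00259, and -1.42 in Notch2-mKO, adjusted p = 0.0237). Hif1a, the oxygen-regulated transcription factor, rose in both WT treatments (0.79 and 0.90, adjusted p = 9.22e-04 and 3.23e-04; 0.20 and 0.29 with the trend removed, not called). Bnip3, which removes mitochondria, was called higher in the 4 comparisons (0.58 to 0.93) and in none with the trend removed.

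Among the genes of barrier, haemostasis and tone, Robo4, Vwf and Nos3 fell with unloading in both genotypes. Robo4 (chromosome 9, 37401902 to 37414023), a receptor that stabilises the vessel barrier, was at 7.76, 7.81, 10.8 and 8.19 CPM in unloaded and 11.2, 13.7, 12.1 and 13.4 CPM in diabetic WT libraries, against 15.2, 16.3, 16.0 and 14.0 CPM in WT controls. In Notch2-mKO Robo4 was at 4.69, 8.46, 9.03 and 9.55 CPM in unloaded and 12.3, 12.2, 12.5 and 9.87 CPM in diabetic libraries, against 11.7, 14.9, 10.3 and 15.7 CPM in controls. Unloaded libraries lay below every control of their genotype. The log2 fold changes with unloading were -0.83 (SE 0.172, adjusted p = 6.32e-04) in WT and -0.73 (SE 0.172, adjusted p = 0.0139) in Notch2-mKO, and -0.62 in both with the trend removed, still called. In diabetes they were -0.29 and -0.16 and not called, although the WT libraries did not overlap.

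Vwf (chromosome 6, 125552948 to 125686679), the clotting protein that endothelial cells store, was at 26.2, 24.9, 30.6 and 24.8 CPM in unloaded and 31.4, 43.2, 41.7 and 42.8 CPM in diabetic WT libraries, against 63.0, 49.98, 59.1 and 45.8 CPM in WT controls. In Notch2-mKO Vwf was at 29.4, 35.1, 26.1 and 25.4 CPM in unloaded and 32.1, 45.4, 46.6 and 33.7 CPM in diabetic libraries, against 43.6, 51.0, 37.3 and 56.2 CPM in controls. Treated WT libraries and unloaded Notch2-mKO libraries all lay below their controls. Vwf fell with unloading by 1.03 on the log2 scale in WT (SE 0.152, adjusted p = 1.87e-05) and by 0.70 in Notch2-mKO (SE 0.151, adjusted p = 0.00876). In diabetes it fell in WT (-0.45, adjusted p = 0.0225), a call that ended with the trend removed (-0.32, adjusted p = 0.0844) or without WT diabetes replicate 1 or WT control replicate 1 or 3, and it was not called in Notch2-mKO (-0.25, adjusted p = 0.335).

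Nos3 (chromosome 5, 24364816 to 24384474), the endothelial nitric oxide synthase, was called lower in the 4 comparisons. It was at 4.50, 5.22, 6.59 and 5.07 CPM in unloaded and 5.79, 6.59, 4.83 and 3.99 CPM in diabetic WT libraries, against 9.03, 8.50, 8.03 and 8.48 CPM in WT controls. In Notch2-mKO Nos3 was at 4.47, 5.04, 5.10 and 4.65 CPM in unloaded and 5.503, 5.33, 6.04 and 4.65 CPM in diabetic libraries, against 6.50, 8.59, 7.36 and 9.87 CPM in controls. No treated library reached the lowest control of its genotype. The log2 fold changes were -0.67 (SE 0.154, adjusted p = 0.00157) and -0.68 (SE 0.154, adjusted p = 0.00141) for unloading and diabetes in WT, and -0.75 (SE 0.154, adjusted p = 0.00735) and -0.58 (SE 0.154, adjusted p = 0.0289) in Notch2-mKO. With the trend removed they were -0.38, -0.44, -0.63 and -0.45 in the same order, with adjusted p of 0.0562, 0.0304, 0.0119 and 0.0766. The call in diabetic Notch2-mKO muscle was also lost without control replicate 2 or 4 or diabetes replicate 1, 2 or 4.

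Plvap (chromosome 8, 71497753 to 71511806), which forms the diaphragms of endothelial caveolae, fell in unloaded WT muscle. It was at 19.1, 10.6, 10.7 and 10.5 CPM in unloaded and 15.4 to 19.0 CPM in diabetic WT libraries, against 27.6, 16.3, 22.0 and 18.5 CPM in WT controls. Replicate 1 of the unloaded WT libraries overlapped with the controls and the other 3 did not. The log2 fold change was -0.73 (SE 0.185, adjusted p = 0.00351), and -0.36 with the trend removed (adjusted p = 0.148). In Notch2-mKO Plvap was at 11.2 to 15.1 CPM in unloaded and 13.0 to 20.7 CPM in diabetic libraries, against 15.3 to 18.9 CPM in controls, with no call although the unloaded libraries lay below the controls.

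Of 11 tested genes of endothelial adhesion and activation, 1 rose and 3 fell in unloaded WT muscle, 0 rose and 1 fell in unloaded Notch2-mKO muscle, 2 rose and 0 fell in diabetic WT muscle and 1 rose and 0 fell in diabetic Notch2-mKO muscle. S1pr1, the sphingosine phosphate receptor of vessel integrity, fell with unloading in both (-0.62 in WT, adjusted p = 0.0248, and -0.74 in Notch2-mKO, adjusted p = 0.0353). Ece1, which makes active endothelin, rose with unloading in WT (0.63, adjusted p = 0.00935) and in diabetes in WT (0.80, adjusted p = 0.00157) and Notch2-mKO (0.64, adjusted p = 0.0405).

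The junction genes that define the endothelium did not pass the test in any treatment comparison. Pecam1 (chromosome 11, 106654213 to 106715281), an adhesion protein between endothelial cells, was at 48.4, 46.1, 49.8 and 45.5 CPM in unloaded and 47.8, 55.5, 62.4 and 48.7 CPM in diabetic WT libraries, against 50.9, 47.0, 45.4 and 62.7 CPM in WT controls. In Notch2-mKO Pecam1 was at 36.1, 50.1, 40.4 and 56.1 CPM in unloaded and 41.6, 50.6, 55.5 and 44.7 CPM in diabetic libraries, against 53.0, 40.7, 35.5 and 66.1 CPM in controls. The groups overlapped throughout, and the log2 fold changes in WT were -0.12 after unloading and 0.06 in diabetes, and those in Notch2-mKO -0.10 and -0.02 (adjusted p between 0.607 and 0.957).

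Cdh5 (chromosome 8, 104101613 to 104144504), the cadherin that joins endothelial cells, was at 47.4, 41.7, 53.7 and 43.2 CPM in unloaded and 41.4, 57.1, 55.1 and 44.5 CPM in diabetic WT libraries, against 61.6, 62.9, 48.3 and 80.6 CPM in WT controls. In Notch2-mKO Cdh5 was at 33.1, 47.5, 39.1 and 53.0 CPM in unloaded and 38.9, 51.2, 53.2 and 42.7 CPM in diabetic libraries, against 58.6, 44.0, 37.8 and 75.8 CPM in controls. Most treated libraries were lower than most controls, yet the groups overlapped. The log2 fold changes were -0.45 (adjusted p = 0.0659) and -0.36 (adjusted p = 0.147) in WT and -0.32 (adjusted p = 0.293) and -0.22 (adjusted p = 0.528) in Notch2-mKO, for unloading and diabetes in turn.

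Among the other surface genes, Emcn (chromosome 3, 137341062 to 137431069), a mucin-like protein of capillaries and veins, fell in unloaded Notch2-mKO muscle. It was at 3.23, 3.94, 3.75 and 3.92 CPM in unloaded libraries, against 6.63, 4.77, 5.84 and 7.16 CPM in Notch2-mKO controls, with no overlap (-0.72, SE 0.19, adjusted p = 0.0257; not called without unloading replicate 1 or control replicate 4). In WT it was at 4.48 to 5.53 CPM in unloaded and 3.67 to 7.11 CPM in diabetic libraries, against 5.51 to 7.64 CPM in controls, with no call. Emcn has the lowest GC content of the list (41.5%), and with the trend removed it was called lower in both WT treatments (-0.93, adjusted p = 0.00125, and -0.82, adjusted p = 0.00364).

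Clec14a (chromosome 12, 58264720 to 58269258), a lectin receptor of endothelial cells, rose in unloaded WT muscle, and its matrix ligand Mmrn2 fell. Clec14a was at 3.39, 2.30, 2.72 and 2.90 CPM in unloaded WT libraries, against 1.74, 1.38, 1.47 and 2.17 CPM in WT controls, with no overlap (0.75, SE 0.26, adjusted p = 0.0273). Mmrn2 was at 13.7 to 18.6 CPM in unloaded WT libraries, against 19.0 to 24.9 CPM in WT controls (-0.51, adjusted p = 0.0268). Rasip1, which acts in the opening of the vessel lumen, was at 8.41 to 9.74 CPM there, against 11.7 to 13.2 CPM in WT controls (-0.49, adjusted p = 0.0269). With the trend removed the values were 0.44 for Clec14a (adjusted p = 0.184), -0.33 for Mmrn2 (adjusted p = 0.146) and -0.12 for Rasip1 (adjusted p = 0.59), and each of the 3 calls was also lost in 4 of 8 fits with 1 library left out. For Clec14a these left out WT control replicate 1, 2 or 3 or WT unloading replicate 1, for Mmrn2 control replicate 2 or 4 or unloading replicate 2 or 4, and for Rasip1 control replicate 3 or unloading replicate 2, 3 or 4. In unloaded Notch2-mKO muscle Clec14a was at 1.50 to 2.28 CPM, against 1.45 to 2.85 CPM in controls, and the 2 responses differed by -0.83 (Notch2-mKO minus WT; unadjusted p = 0.0328, adjusted p = 0.298 in edgeR), which was not called. Cldn5, Esam, Icam2, Ecscr and Egfl7 were called in no treatment comparison. The tight junction gene Cldn5 was at 5.81 to 12.6 CPM in unloaded and 4.54 to 5.65 CPM in diabetic WT libraries, against 3.61 to 13.6 CPM in WT controls. Esam, an adhesion molecule of tight junctions, was at 8.30 to 12.1 CPM in unloaded Notch2-mKO libraries, against 11.6 to 18.9 CPM in controls (-0.48, adjusted p = 0.0575). Icam2, a ligand of leukocyte integrins, was at 2.37 to 3.01 CPM in unloaded WT libraries, against 3.23 to 4.27 CPM in WT controls, without overlap but not called (-0.52, adjusted p = 0.0639).

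The most abundant gene, Aqp1 (chromosome 6, 55336299 to 55348555), was at 213 to 256 CPM in unloaded and 207 to 272 CPM in diabetic WT libraries, against 218 to 257 CPM in WT controls. In Notch2-mKO Aqp1 was at 131, 202, 212 and 222 CPM in unloaded libraries, against 272, 274, 223 and 250 CPM in controls (-0.41, adjusted p = 0.0481). That call was lost with the trend removed (-0.34, adjusted p = 0.0704) and without control replicate 1, 2 or 4 or unloading replicate 1 or 2. Gpihbp1, which carries lipoprotein lipase to the capillary surface, was at 16.6 to 22.9 CPM in diabetic WT libraries, against 13.8 to 22.1 CPM in WT controls, and at 18.0 to 20.1 CPM in diabetic Notch2-mKO libraries, against 14.8 to 16.8 CPM in controls. It was not called by edgeR (0.23 and 0.28), though limma on the authors' log2 values called it higher in both.

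Of 14 tested genes of capillary lipid and solute transport, 4 rose in diabetic WT and 2 in diabetic Notch2-mKO muscle, and 0 fell. Cd36, the fatty acid transporter of capillaries and fibres, rose in diabetes in WT (1.48, adjusted p = 7.13e-06) and Notch2-mKO (0.78, adjusted p = 0.0166), and Lipe, a lipase, in both (0.62, adjusted p = 0.00606, and 0.56, adjusted p = 0.0451). Lpl, the lipase that Gpihbp1 carries, rose in diabetic WT muscle (0.89, adjusted p = 0.00178). After unloading 2 rose and 1 fell in WT and 0 rose and 1 fell in Notch2-mKO: Cd300lg, a capillary surface protein, fell in both (-0.62, adjusted p = 6.71e-04, and -0.45, adjusted p = 0.0344). Removing the trend ended the calls of Cd36 in diabetic and Cd300lg in unloaded Notch2-mKO muscle (adjusted p = 0.198 and 0.0526).

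Among the 6 transcription factors, Sox17 (chromosome 1, 4490928 to 4497426), a factor of arterial endothelium, fell in unloaded WT muscle. It was at 2.04, 1.77, 2.09 and 2.14 CPM in unloaded and 3.45, 3.30, 3.89 and 4.01 CPM in diabetic WT libraries, against 3.27, 3.70, 2.74 and 2.57 CPM in WT controls. In Notch2-mKO Sox17 was at 1.76, 2.43, 2.75 and 1.23 CPM in unloaded and 3.48, 2.89, 4.49 and 3.67 CPM in diabetic libraries, against 2.69, 3.63, 2.20 and 2.45 CPM in controls. In WT the unloaded libraries lay below all others, and in Notch2-mKO they overlapped with the controls. The fall with unloading in WT was -0.61 (SE 0.213, adjusted p = 0.0268), lost with the trend removed (-0.46, adjusted p = 0.113) and without control or unloading replicate 1 or 2. In unloaded Notch2-mKO muscle the value was -0.43 (adjusted p = 0.209).

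Fli1 (chromosome 9, 32422204 to 32543432), an ETS factor and the gene of lowest level, rose in both WT treatments. It was at 1.10, 0.637, 0.963 and 0.570 CPM in unloaded and 0.510, 1.20, 0.978 and 0.698 CPM in diabetic WT libraries, against 0.300, 0.475, 0.170 and 0.371 CPM in WT controls. Neither treated group overlapped with the controls (1.30, adjusted p = 0.015, and 1.35, adjusted p = 0.0124), and with the trend removed neither was called (1.0, adjusted p = 0.059, and 1.04, adjusted p = 0.0541). The calls were also lost without control replicate 3, unloading replicate 1 or diabetes replicate 2. In Notch2-mKO Fli1 was at 0.767, 1.12, 0.813 and 0.506 CPM in unloaded and 0.305, 0.424, 0.338 and 0.714 CPM in diabetic libraries, against 0.693, 0.241, 0.339 and 0.476 CPM in controls, with overlap and no call (0.86, adjusted p = 0.17, and 0.02, adjusted p = 0.987). The other ETS factors Erg (2.42 to 7.36 CPM over all libraries) and Ets1 (2.67 to 8.24 CPM) and the SOX factors Sox7 (2.23 to 4.07 CPM) and Sox18 (2.98 to 8.86 CPM) were called in no treatment comparison. Of 13 other endothelial transcription factor genes 1 rose and 1 fell in unloaded WT muscle, where Klf2, which flow induces, fell (-1.46, adjusted p = 0.00222). In diabetic WT muscle 1 rose and 0 fell, Foxo1 (1.32, adjusted p = 0.0148; 1.14 with the trend removed, adjusted p = 0.0551), and none was called against control in Notch2-mKO.

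Of 15 tested genes of endothelial Notch signalling and arterial identity 0 rose and 1 fell in unloaded WT, 0 rose and 2 fell in unloaded Notch2-mKO, 2 rose and 3 fell in diabetic WT and 0 rose and 1 fell in diabetic Notch2-mKO muscle. The endothelial receptor Notch4 fell with unloading in both genotypes (-0.92 in WT, adjusted p = 0.00108, and -0.97 in Notch2-mKO, adjusted p = 0.00743), and Notch1 in Notch2-mKO (-0.92, adjusted p = 0.00758). Nrarp, a Notch target and feedback inhibitor, fell in diabetes in both (-1.36, adjusted p = 0.0044, and -1.38, adjusted p = 0.0257). Of 9 venous and tip cell genes 1 rose and 1 fell in unloaded and 2 rose and 1 fell in diabetic WT muscle: Nr2f2, the venous regulator, rose in both (1.05 and 1.0, adjusted p = 9.54e-04 and 0.00154) and the chemokine gene Cxcl12 fell in both (-0.64 and -0.56, adjusted p = 0.00917 and 0.0213). None of these 9 was called against control in Notch2-mKO.

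Between the genotypes no endothelial gene was called. By edgeR 0 of 33 passed for Notch2-mKO against WT in controls (0% of all genes called), in unloading (0%) and in diabetes (0%), and 0 of 33 for the difference between the responses to unloading (0%) or to diabetes (0%). DESeq2 also called 0 of 33 in each of the 5. At an unadjusted p below 0.05 there were 0, 4 and 1 of the 33 in the 3 direct comparisons, where 695, 1345 and 692 of all genes passed, and 2 and 1 for the differences in response, where 1875 and 1142 passed. In unloaded muscle Emcn (-0.42), Ptprb (-0.31), Aqp1 (-0.27) and Clec14a (-0.57, all log2, Notch2-mKO over WT) had unadjusted p between 0.0355 and 0.0489 and adjusted p between 0.455 and 0.481. In diabetic muscle Fli1 was the only one (-0.93, unadjusted p = 0.0242, adjusted p = 0.872), and its responses to diabetes differed by -1.33 (Notch2-mKO minus WT; unadjusted p = 0.0284, adjusted p = 0.536 in edgeR). The summed level of the list averaged 622 ± 117 CPM in unloaded Notch2-mKO and 672 ± 47.8 CPM in unloaded WT libraries, 698 ± 76.1 and 737 ± 36.2 CPM in diabetic Notch2-mKO and WT libraries, and 766 ± 114 and 787 ± 49.3 CPM in Notch2-mKO and WT controls (SD, n = 4 each).

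Set directly against each other, diabetic muscle had higher levels of several endothelial genes than unloaded muscle. In WT 4 of 33 were higher in diabetes and 0 lower, where 2.31% of all genes were higher and 1.24% lower. In Notch2-mKO 4 were higher and 1 lower, where 1.95% were higher and 1.12% lower. The directions there depended on the fit: DESeq2 called 5 higher and 4 lower, and a fit of only the groups compared 1 higher and 2 lower. The share of all genes called in those fits is not given here. The libraries compared are those listed above. Sox17 was higher in diabetes in WT (0.87, SE 0.21, adjusted p = 0.019) and Notch2-mKO (0.83, SE 0.211, adjusted p = 0.0284), and the 4 diabetic libraries lay above the 4 unloaded ones in both. The same held for Ptprb (0.57, adjusted p = 0.0283, and 0.68, adjusted p = 0.00972) and Eng (0.43, adjusted p = 0.0448, and 0.52, adjusted p = 0.0156). Vwf was called higher in WT (0.58, adjusted p = 0.0295) and Flt1 in Notch2-mKO (0.52, adjusted p = 0.0397), while Aplnr was lower in diabetic Notch2-mKO muscle (-1.58, adjusted p = 0.0427). Single libraries decide most of these calls: leaving out 1 library left 1 to 5 calls in WT and 1 to 4 in Notch2-mKO, and only Ptprb in Notch2-mKO kept its call in all 8 fits. Other genes of the lists above went the same way in both genotypes, among them Id1 (0.89, adjusted p = 0.008, and 1.07, adjusted p = 0.00193), Notch4 (0.78, adjusted p = 0.0285, and 0.84, adjusted p = 0.0203), S1pr1 (0.76, adjusted p = 0.0438, and 0.96, adjusted p = 0.0126) and Foxo1 (2.07, adjusted p = 0.00567, and 1.94, adjusted p = 0.00951). Removing the trend ended the call of Notch4 in WT.

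The base composition of the genes ran alongside the size of their changes. Over the 33 genes the Spearman correlation of log2 fold change with GC content was -0.49 for unloading and -0.43 for diabetes in WT, and -0.15 and -0.24 in Notch2-mKO. After removal of the trend it was -0.18, -0.11, -0.11 and -0.05 in the same order. The correlation with transcript length was -0.22, -0.09, -0.47 and -0.27 as counted and -0.35, -0.32, -0.44 and -0.31 after removal of the trend, which was fitted over all genes. Among these 33 it was thus more negative after removal in both WT treatments and in diabetic Notch2-mKO muscle. In unloaded Notch2-mKO muscle it was slightly less negative. These are descriptions across genes of the same libraries, which share depth and composition.

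**Figure D4:**
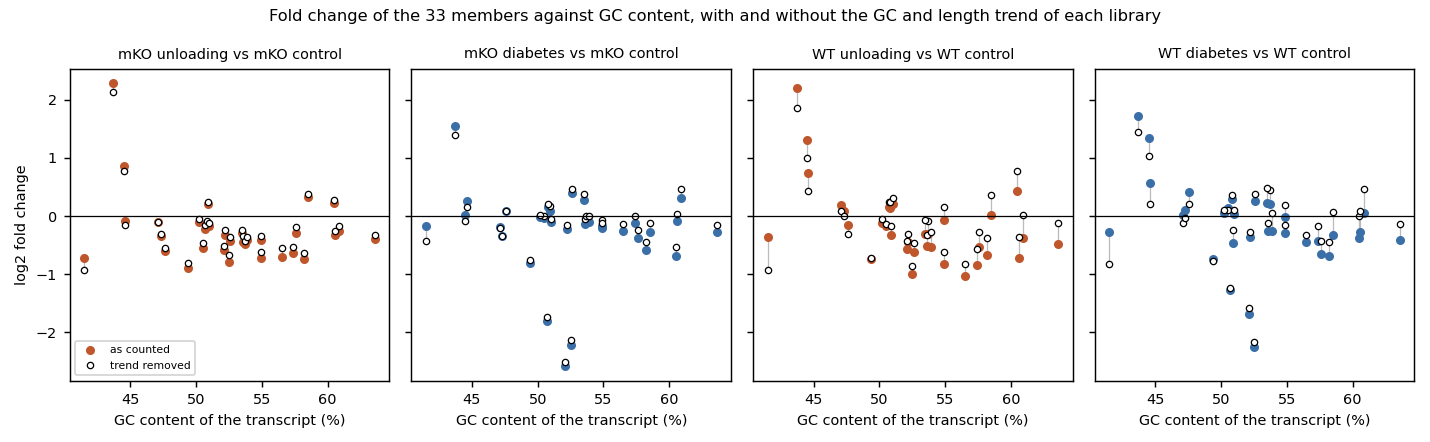
Log2 fold change of the 33 genes (vertical axis) against the GC content of their transcript (horizontal axis, %), as counted (filled) and with the GC and length trend of each library removed (open), joined by a line per gene. In the WT panels the points of low GC content move down and those of high GC content move up when the trend is removed, and Tmem100 near 43.7% GC stays the highest point in each panel.

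Several calls named above for genes outside the list of 33 rest on few libraries too. Calls of Id1, Vegfa, Bnip3, Cd300lg and S1pr1 in unloaded and of Angptl4, Car9, Cd36, Lipe, Ece1, Nrarp and Bnip3 in diabetic Notch2-mKO muscle, and those of S1pr1 in unloaded and Smad5 in diabetic WT muscle, were each lost in 4 to 7 of the 8 fits that left out 1 library.

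Markers of other cells of whole muscle moved with some groups too, and their part in the endothelial results was not tested. Macrophage and leukocyte markers summed to 52.2 to 68.8 CPM in unloaded WT libraries, against 76.7 to 88.1 CPM in WT controls, and 5 of 11 fell there, including Csf1r (-0.89, adjusted p = 1.08e-04). Of these 11 markers 9 were lower and 2 higher there, and 4 were called lower with the trend removed. In the other 3 treated groups the sums of this list overlapped with the controls, at 68.0 to 84.3 CPM in diabetic WT, and at 60.5 to 92.5 and 59.3 to 78.9 CPM in unloaded and diabetic Notch2-mKO libraries, against 55.4 to 92.9 CPM in Notch2-mKO controls. The markers did not move together in diabetic WT muscle: Ptprc and Cd163 were called higher and C1qa lower. With the trend removed 1 was called higher and 0 lower there. Of 11 pericyte and smooth muscle genes 5 fell and 1 rose in unloaded WT and 3 fell and 2 rose in diabetic WT muscle, and 0 were called in unloaded and 3 fell in diabetic Notch2-mKO muscle (Mcam, Cspg4 and Pdgfrb, -0.93, -0.97 and -0.61), the last lost in 6 of 8 fits with 1 library left out. The rises, named after their values were seen, were of Rgs5 in both WT treatments and of Abcc9 in diabetic WT muscle. Rgs5 averaged 35.3 CPM in unloaded and 43.2 CPM in diabetic WT libraries, against 15.1 CPM in WT controls. With the trend removed 2 of that list rose in unloaded and 1 in diabetic WT muscle. Des, which muscle fibres also express, made up 94.1% to 96.8% of the summed level of that list, and Acta2 was listed at 0 in every library. Without Des the sums were 333 to 394 CPM in unloaded and 336 to 416 CPM in diabetic WT libraries, against 321 to 381 CPM in WT controls, and 315 to 362 and 332 to 367 CPM in unloaded and diabetic Notch2-mKO libraries, against 328 to 389 CPM in controls, with overlap throughout. Abcc9 alone had group means of 205 to 241 CPM, so changes of genes at lower levels weigh little in these sums. Fibroblast markers summed to 282 to 525 CPM in unloaded and 286 to 436 CPM in diabetic WT libraries, against 536 to 709 CPM in WT controls, and Col1a1 fell in the 4 comparisons (-1.65 to -2.67), a call lost in 4 of 8 fits with 1 library left out in unloaded Notch2-mKO muscle. In Notch2-mKO the sums were 308 to 482 and 326 to 418 CPM, against 418 to 768 CPM in controls. The members of that list did not move together: Dcn was called higher in unloaded (0.56, adjusted p = 0.0147) and Dcn and Lum in diabetic WT muscle (0.54 and 0.69, adjusted p = 0.0203 and 0.0104), none of them with the trend removed. Col3a1 fell in both WT treatments and in diabetic Notch2-mKO muscle (-1.62 to -2.14). Without Col1a1 and Col3a1 the sums of the other 5 were 246 to 292 CPM in unloaded and 246 to 319 CPM in diabetic WT libraries, against 145 to 279 CPM in WT controls, and 188 to 275 and 254 to 287 CPM in unloaded and diabetic Notch2-mKO libraries, against 166 to 262 CPM in controls. Lymphatic markers summed to 13.2 to 17.1 CPM in unloaded WT libraries, against 18.7 to 20.4 CPM in WT controls, and 2 of 7 (Flt4 and Reln) fell there, neither with the trend removed. In diabetic WT libraries they summed to 16.8 to 24.6 CPM, and Lyve1 (0.91, adjusted p = 0.00432) and Mmrn1 (1.17, adjusted p = 0.0407) rose, of which Lyve1 was still called with the trend removed, while none of the 7 was called in Notch2-mKO. Red blood cell genes, for blood left in the vessels, summed to 441 to 1335 CPM in unloaded WT libraries, against 323 to 675 CPM in WT controls, and none of the 5 was called in a treatment comparison. In Notch2-mKO they summed to 366 to 1280.4 CPM in unloaded and 262 to 1182 CPM in diabetic libraries, against 279.5 to 583 CPM in controls. Of 8 muscle fibre markers 2 fell in unloaded and 5 in diabetic WT muscle and 1 in each Notch2-mKO treatment, and with the trend removed 1 fell in each of the 4 comparisons. They summed to 171695 to 228521 CPM in unloaded and 167818 to 233250 CPM in diabetic WT libraries, against 253276 to 307892 CPM in WT controls. In Notch2-mKO they summed to 133756 to 243475 CPM in unloaded and 202928 to 230252 CPM in diabetic libraries, against 237416 to 270863 CPM in controls.

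**Figure D5:**
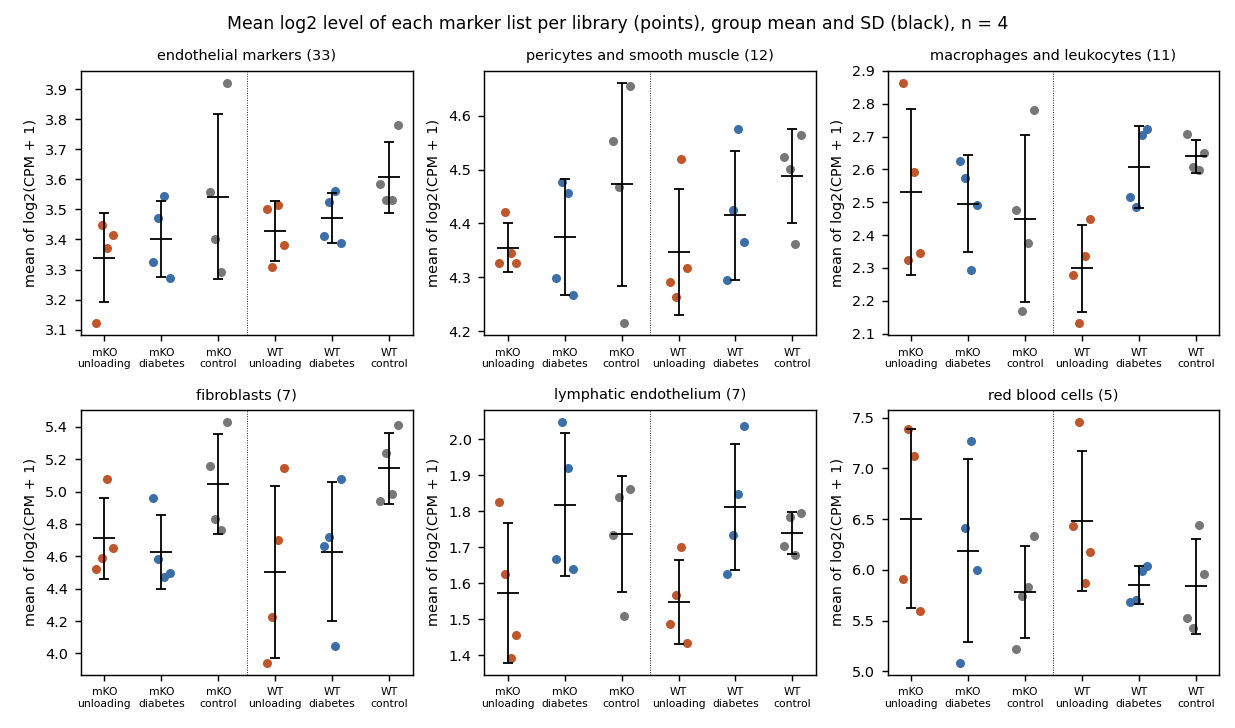
Mean of log2(CPM + 1) over each marker list (vertical axes, which do not start at 0) in each library (points), with group mean and SD (black, n = 4). The number of genes in each list is in the panel title, and treated groups stand left of the controls of their genotype. The 4 unloaded WT libraries lie below the 4 WT controls both for the endothelial genes and for macrophages and leukocytes, and Notch2-mKO groups overlap in both.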

How the data were processed

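RNA from mouse gastrocnemius was sequenced, and 24 libraries in 6 groups were analysed, grouped by the submitters' labels. The deposited tables hold, per the file headers, an estimated count per gene (raw columns) and a log2 value per gene that the authors normalized and centred in each table. The submitters' processing notes name the build mm10. No aligner or counter is named (not given in the sources used here). The 4 tables repeat the control columns, and 8 of 8 repeated columns were identical.

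Estimated counts were rounded to whole numbers, filtered with filterByExpr (13048 genes kept), scaled by TMM and fitted in 1 edgeR 4.0.16 quasi-likelihood model with 1 coefficient per group (R 4.3.3). P-values were Benjamini-Hochberg adjusted over all genes and called below 0.05. SE is the size of the log2 fold change divided by the root of F. Alternatives used DESeq2 1.42.0, limma 3.58.1 on the deposited log2 values, other scalings, no filter, a replicate block, removal of a library-wise trend on GC content and length (known for 99.2% of genes, from mouse transcripts of GRCm38), the compared groups alone and each library left out. Scripts were tested on simulated data.

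All 33 symbols matched. Of the other lists, 3 genes matched through another symbol and 2 had no row. Coordinates come from RefSeq (GRCm38.p6). The members and lists were chosen with earlier results of these data known. Values in every library are given for Pecam1, Cdh5 and, per comparison, up to 4 called genes with the largest rise and 4 with the largest fall among those of at least 2 CPM. Of the other lists up to 4 called genes with the smallest p per comparison were named, and Vegfa, Angpt1, Angpt2 and Apln whatever their p. Library values of Fli1 and Pcdh12 in all groups, and marker sums without Des or without Col1a1 and Col3a1, were added after their values were seen.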

Additional observations from a re-analysis of the deposited data

Results flagged for a closer look

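In 20 genes and the summed level of the list, 126 groups of 4 libraries were checked for a library far from the other 3, by the gap to its neighbour as a share of the group's range (Dixon's test), and 7 were found. Chance flags about 1 in 20 groups. In WT diabetes replicate 1, Vwf was at 31.4 CPM, while the other 3 libraries were at 41.7 to 43.2 CPM. Robo4 was at 10.8 CPM in WT unloading replicate 3, with the others at 7.76 to 8.19 CPM, and at 9.87 CPM in Notch2-mKO diabetes replicate 4, with the others at 12.2 to 12.5 CPM. Plvap was at 19.1 CPM in WT unloading replicate 1, with the others at 10.50 to 10.7 CPM. Ptprb was at 29.7 CPM in Notch2-mKO control replicate 3, with the others at 41.3 to 42.6 CPM. Aplnr was at 13.6 CPM in Notch2-mKO control replicate 4, with the others at 2.27 to 3.92 CPM. Flt1 was at 37.5 CPM in WT control replicate 4, with the others at 33.2 to 33.5 CPM.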

How the results depend on the processing

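Numbers of the 33 genes called depended on the treatment of base composition and on single libraries. Shares of all genes called are not given for DESeq2, the compared groups alone, the replicate block or the fits without both controls numbered 4. Counts in those settings therefore do not set the list apart from other genes. In unloaded WT muscle 12 were called, 5 with the GC and length trend removed, 6 with the replicate block and the trend removed and 4 by limma. In unloaded Notch2-mKO muscle 9 were called, 5 with only the groups compared and 0 by limma. In diabetic WT muscle 10 were called, 7 lower and 2 higher with the trend removed (not all the same genes) and 2 by limma. In diabetic Notch2-mKO muscle 5 were called, 3 with the trend removed with or without the block, 1 by limma and 0 without both controls numbered 4, a setting chosen after seeing the data. For diabetes against unloading DESeq2 called 7 in WT (6 higher and 1 lower in diabetes) and 9 in Notch2-mKO (5 higher and 4 lower), against 4 and 5 by edgeR. With only those groups 3 were called in Notch2-mKO, 1 higher and 2 lower, and in WT 2 were higher and 1 lower.

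With each library left out in turn the counts were 8 to 12 in unloaded WT, 5 to 11 in unloaded Notch2-mKO, 6 to 10 in diabetic WT and 0 to 5 in diabetic Notch2-mKO muscle. For diabetes against unloading they were 1 to 5 in WT and 1 to 4 in Notch2-mKO, and for the genotype comparisons and the differences in response 0. Shares of all genes called in these fits are not given, so the ranges do not set the list apart from other genes. For diabetes against unloading in WT 2 were called without unloading replicate 1 or diabetes replicate 4, and 1 without unloading replicate 2 or 4 or diabetes replicate 2 or 3. In Notch2-mKO 2 were called without unloading replicate 1 or diabetes replicate 2 or 4, 3 without diabetes replicate 1 and 1 without diabetes replicate 3.

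Among 54 named fold changes, those that changed sign had not been called. Pecam1 was at 0.14 by limma in unloaded WT, 0.058 by limma and 0.074 without both controls numbered 4 in unloaded Notch2-mKO, and 0.025 with the trend removed, 0.033 with block and trend, 0.14 by limma and 0.16 without both controls in diabetic Notch2-mKO muscle. Angpt1 in unloaded Notch2-mKO was at -0.11 with the trend removed and -0.17 with block and trend, and Vegfa in diabetic WT at 0.11 by limma. With 1 library left out, Pecam1 ran from -0.24 to 0.074 in unloaded Notch2-mKO, -0.022 to 0.17 in diabetic WT and -0.15 to 0.16 in diabetic Notch2-mKO muscle, Angpt1 from -0.27 to 0.39 in unloaded Notch2-mKO and Vegfa from -0.28 to 0.0085 in diabetic WT muscle. The cause was not tested. All 54 kept direction and call with DESeq2, RLE or upper quartile scaling and the replicate block.

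Replicate numbers were not treated as pairs in the main fit. Over 60 pairs of same-numbered libraries the correlation of deviations ran from -0.23 to 0.326, and 7 were over 0.1. The highest was between the WT and Notch2-mKO controls numbered 3, and the controls numbered 4 were at 0.175. Libraries of different numbers were not compared in this way, so whether some numbers share handling was not tested. With the replicate block 12, 8, 10 and 5 of the 33 were called in unloaded WT, unloaded Notch2-mKO, diabetic WT and diabetic Notch2-mKO muscle, 5 in each comparison of diabetes with unloading and 0 elsewhere. The share of all genes called with the block is not given here. limma was not run between genotypes or treatments, since the tables were centred separately. Depth limits Apln, Fli1 and Pcdh12 most.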
